A study of Mus musculus with 4 samples.

Results

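Of the 33820 CTCF peaks deposited for cultured mouse cortical neurons, 2345 had their summit inside a long protein-coding gene and away from gene ends, and these are the peaks described here. A peak was taken where its summit lay on chromosomes 1 to 19, inside a protein-coding gene of at least 300 kb, and more than 1 kb from both ends of every protein-coding gene. They made up 7.09% of the 33075 peaks on those chromosomes. Gene bounds were those of RefSeq on GRCm38.p6, the build of the peaks, on which 533 of 20558 protein-coding genes (2.59%) were long enough. The long genes had a median length of 450.8 kb, from 300.2 kb to 2270.5 kb.

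The study used chromatin immunoprecipitation and sequencing of CTCF, as 1 experiment of a series on the enzyme TOP2B in neurons. There were 2 CTCF immunoprecipitations, called biological replicates in the labels, and 2 inputs, all from wild-type Swiss-Webster cortex of embryonic day 16, kept 13 days in culture and given no treatment. Etoposide, a topoisomerase II poison, is named in the culture text of the labels, but the treatment field of these samples reads none. The cells were dissociated whole cortex, so other cell types of the cortex may be present, and a list of peaks holds no expression by which the neuronal label could be checked. With 1 condition, no test between groups of samples was possible, and the values below compare classes of peaks and genes inside 1 joint list. Each peak in it was matched between the replicates with an IDR (irreproducible discovery rate) no higher than 0.05.

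CTCF, a protein with many zinc fingers, recognises a long, directional DNA motif and halts the cohesin complex as it extrudes loops of chromatin, so that its sites often mark the feet of loops. Many very long genes act in neurons, at the synapse, in cell adhesion, as ion channels or in signalling, and their full transcription depends on topoisomerases that release the torsion built up by RNA polymerase. TOP2B, the topoisomerase II of cells that no longer divide, is known to sit beside CTCF and cohesin at loop anchors. Long genes also often have start sites deep inside them, from which shorter isoforms or non-coding RNAs are made.

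Sequences were at hand for the annotated starts inside the long genes, and those that held a strong peak are shown first. RefSeq starts on GRCm38.p6, more than 1 kb from the ends of all protein-coding genes, numbered 805 inside the long genes, and the 300 bases around 23 of them held a member summit, 22 peaks in all since a pair of overlapping windows in Pde4d shared 1. The windows were searched on both strands for the 12-position core of the CTCF consensus with at most 1 mismatch. The 150 bases before the start are printed for 5 of the 6 starts whose peak had a joint strength over 400, where joint strength is the authors' value, the −log10 p of each replicate added together. Capitals mark the match, and a sequence without capitals had none.

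Of the printed windows 3 held a match within 30 bases of the summit. Cpne4, for a calcium-dependent membrane-binding protein, has an internal start at chr9:104569505-104569654 (plus strand), with a peak of 359 in the first and 352 in the second replicate column. The non-coding Gm53063, inside Ntrk2, the gene of the BDNF receptor, lies at chr13:59073715-59073864 (minus strand), with 267 and 451. The non-coding Gm30284, inside the protein kinase C gene Prkce, is at chr17:86444988-86445137 (minus strand), with 52.2 and 372. The match centres stood 28, 11 and 8 bases from the summit, in the order given.
Cpne4 internal start: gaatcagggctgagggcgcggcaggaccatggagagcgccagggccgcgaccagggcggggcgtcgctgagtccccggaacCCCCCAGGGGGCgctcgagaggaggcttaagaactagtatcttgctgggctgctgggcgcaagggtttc
Gm53063 start in Ntrk2: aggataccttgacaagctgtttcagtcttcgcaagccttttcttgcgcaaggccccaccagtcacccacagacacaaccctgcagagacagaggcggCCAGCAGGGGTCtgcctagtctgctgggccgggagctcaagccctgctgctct
Gm30284 start in Prkce: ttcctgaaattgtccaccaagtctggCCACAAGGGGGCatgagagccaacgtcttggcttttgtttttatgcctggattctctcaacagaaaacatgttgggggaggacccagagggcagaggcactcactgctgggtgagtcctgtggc

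The other two printed starts had no such match in their window. They were the internal start of the potassium channel gene Kcnh1 at chr1:192190627-192190776 (plus strand), with 796 in the first and 709 in the second column, and that of the cation channel gene Trpm3 at chr19:22138896-22139045 (plus strand), with 301 and 259.
Kcnh1 internal start: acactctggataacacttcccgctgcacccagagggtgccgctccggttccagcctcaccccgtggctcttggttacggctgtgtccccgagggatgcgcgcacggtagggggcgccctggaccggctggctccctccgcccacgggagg
Trpm3 internal start: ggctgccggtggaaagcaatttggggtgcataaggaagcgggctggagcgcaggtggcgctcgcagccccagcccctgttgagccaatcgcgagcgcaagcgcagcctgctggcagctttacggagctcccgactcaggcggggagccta

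A match stood in 5 of the 23 windows with a member summit (21.7%), and in 1383 of 31396 RefSeq promoter windows of the same length on chromosomes 1 to 19 (4.41%). It stood in 4 of the 6 windows with a peak over 400 and in 1 of the other 17, that of Unc13c, a synaptic vesicle priming gene, where it lay 245 bases from the summit. Among all 805 starts inside long genes 17 (2.11%) had a match. A match of letters is a description of these windows. The windows cover few of the peaks, and the sequence under the others was not used here.

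Long genes held fewer CTCF peaks for their length than shorter genes. Counted over the 300.07 Mb of gene body where a summit could qualify, the members stood at 0.78 per 100 kb (95% Poisson interval 0.75 to 0.81). In genes of 100 to 300 kb the same count gave 1.40 per 100 kb (1.36 to 1.45, 3889 peaks), and in genes of 30 to 100 kb 1.95 per 100 kb (1.89 to 2.00, 4882 peaks). These intervals, like all below, cover counting error only and not the spread between cultures or between genes. They take each peak as independent, although some genes held many peaks and others none. Depth per library is unknown from the list, and a density of peaks depends on it.

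The fall with length went on inside the long genes. Hosts of 1 Mb or more held 369 peaks at 0.50 per 100 kb (0.45 to 0.56, 55 genes), hosts of 500 kb to 1 Mb held 769 at 0.72 (0.67 to 0.78, 161 genes), and hosts of 300 to 500 kb held 1207 at 1.00 (0.94 to 1.06, 317 genes). None of the 3 intervals overlapped. At the length that defines the group, genes of 300 to 310 kb held 72 peaks at 0.99 per 100 kb (24 genes), and genes of 290 to 300 kb held 117 at 1.43 (28 genes). At the distance that defines it, 6 summits lay 1000 to 1100 bases from the nearest gene end inside a long gene and 13 lay 900 to 1000 bases from it.

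Numbers per gene varied more than lengths. The median long gene held 4 of the peaks (quartiles 2 and 6), 59 genes held 1, and 48 genes with at least 10 held 615, which is 26.2% of them. No member lay in 44 genes (8.26%). Across the 533 genes length and count had a Spearman correlation of 0.24. Length and density had one of −0.22 over the genes with a density, without those whose body was all counted in a longer gene. Both are given as a description since neighbouring and nested genes share sequence. Counted once in the longest gene were 9 peaks that lay in more than 1 long gene, and 29 lay in a shorter protein-coding gene as well. Another 196 (8.36%) lay inside or within 1 kb of a gene that is not protein-coding.

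**Figure D1:**
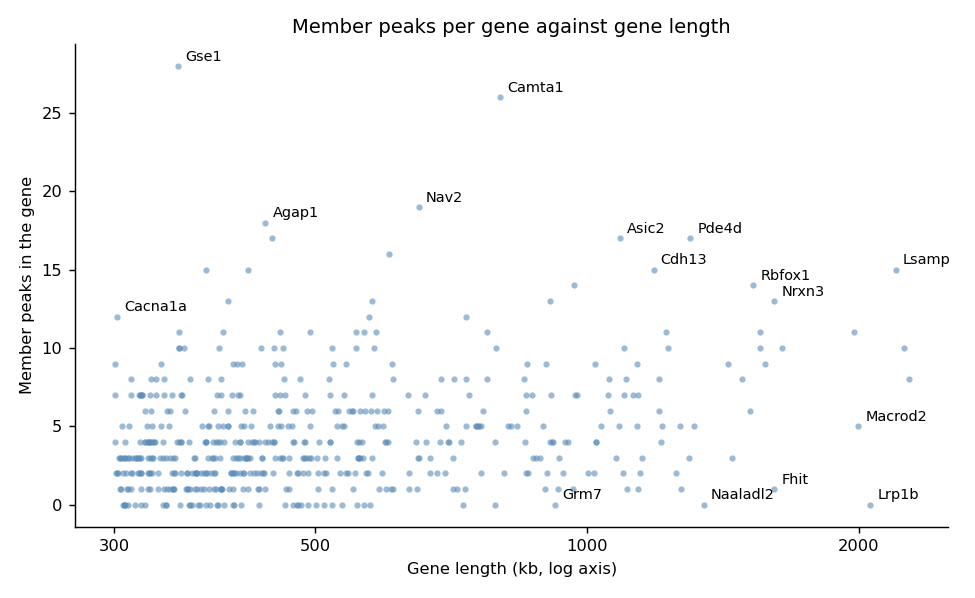
Number of member peaks per long gene (y axis, peaks) against gene length (x axis, kb, log axis). Each point is 1 gene, and selected genes are named. Genes with predicted symbols, and genes whose body was all counted in a longer gene, are not drawn. Gse1 and Camta1 stand above the rest with 28 and 26 peaks, while Lrp1b, Naaladl2 and Grm7 stand at 0 although they are longer than most.

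Gse1, on chromosome 8 from 120228501 to 120581383, was the fullest of the long genes, with 28 peaks in 352.9 kb, or 7.98 per 100 kb. It encodes a coiled-coil protein associated with histone deacetylase complexes. Its peaks ranged in joint strength from 35.9 to 998.8 with a median of 147.1, and no stretch between them was longer than 37.3 kb. The strongest, 60.1 kb from the start, had 322 in the first and 677 in the second column. Another strong one lay 342 kb from the start, near the far end, with 271 and 686. Of the 28, 3 lay within 1 kb of an annotated internal start.

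Camta1 (chromosome 4, 151059523 to 151861768) followed with 26 peaks in 802.2 kb, or 3.27 per 100 kb. It encodes a calmodulin-binding transcription activator expressed in brain. Only 4 of its peaks lay in the first 300 kb from the start, at 10.4, 83.1, 223 and 251 kb, and the other 22 lay from 378 kb to 793 kb. The strongest, 722 kb from the start, had 369 in the first and 418 in the second column.

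Other full genes included Nav2 with 19 peaks (2.93 per 100 kb), which encodes a neuron navigator that acts in neurite growth, and Agap1 with 18 (4.11 per 100 kb), an Arf GTPase-activating protein. Asic2, a proton-gated sodium channel, Pde4d, a cyclic AMP phosphodiesterase, and Shank2, a scaffold of the postsynaptic density, had 17 each. Kalrn, a guanine nucleotide exchange factor of dendritic spines, had 16. Cdh13, Fry, Lsamp and Rbfox3 had 15 each, at 1.27, 3.98, 0.68 and 3.57 per 100 kb in that order. By density the leading genes were Gse1, Agap1, Cacna1a (4.01 per 100 kb), Fry and Shank2 (3.81 per 100 kb). Equal counts thus stood for spacings that differed with length: in Lsamp neighbours were a median of 128.5 kb apart and in Fry 10.8 kb.

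Among the genes of 1 Mb or more the highest densities were those of Asic2 (1.57 per 100 kb), Pde4d (1.31), Cdh13 (1.27), Rbfox1 (0.92) and Anks1b (0.91). Rbfox1 encodes a neuronal splicing regulator and held 14 peaks of 51.0 to 363 over 1527.7 kb. The lowest were Lrp1b and Naaladl2, with no member, and Fhit, Cntn5, Ptprt and Nrg3 with 1 each. Lrp1b encodes a receptor of the LDL receptor family and spans 2058 kb of chromosome 2.

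The single peak of Fhit, a hydrolase gene at a chromosomal fragile site, had 10.4 in the first and 37.7 in the second column and lay 1440 kb from its start. Cntn5, a contactin, had 13.4 and 199 at 580 kb from the start. Nrg3, a ligand of the receptor ErbB4, had 35.1 and 286 at 481 kb. Ptprt, a receptor tyrosine phosphatase gene, had its peak only 1.92 kb inside its start, with 143 and 486, and none over the remaining 1137 kb. Except in Ptprt these lone peaks thus lay far from the start. All were higher in the second column, as were 95.9% of all members.

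**Figure D2:**
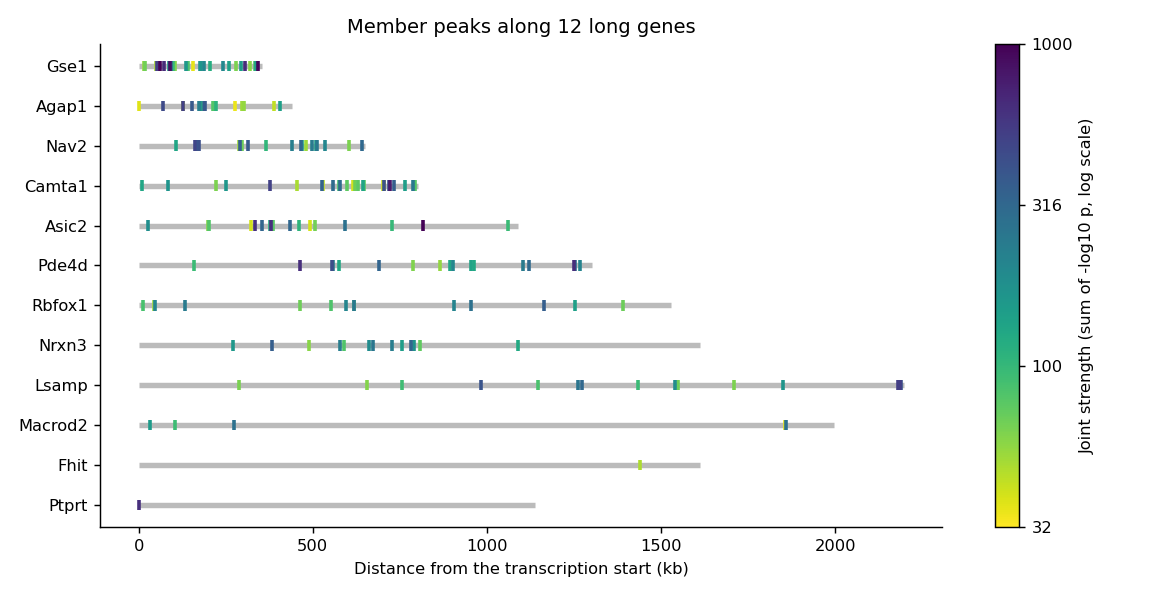
Member peaks along 12 long genes, drawn to scale from the transcription start (x axis, distance in kb); grey bars are genes and each tick is a peak, coloured by joint strength (sum of −log10 p, log scale). Gse1 is filled along its length, Camta1 mainly beyond 378 kb, and Macrod2, Fhit and Ptprt have stretches of over 1000 kb with no member.

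Along the genes the peaks were densest near both ends, and thinned inward. Within 1 to 5 kb of the nearest end of the host 155 peaks stood at 3.69 per 100 kb (3.13 to 4.32). The density was 1.40 at 5 to 20 kb (222 peaks), 0.91 at 20 to 50 kb (288), 0.89 at 50 to 100 kb (473), 0.70 at 100 to 250 kb (855) and 0.48 beyond 250 kb (0.43 to 0.53, 352 peaks). In genes of 100 to 300 kb the values at the first 5 of these distances were 3.16, 1.52, 1.37, 1.17 and 1.07. Up to 20 kb from an end the values of this class lay inside the counting intervals of the long genes, and from 20 kb inward above them.

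At each host length the density 5 to 20 kb from an end was above that at 100 to 250 kb. At 5 to 20 kb from an end the density was 1.52 per 100 kb (0.98 to 2.24) in hosts of 1 Mb or more, 1.37 (1.06 to 1.75) in hosts of 500 kb to 1 Mb and 1.39 (1.16 to 1.65) in hosts of 300 to 500 kb, and these intervals overlap. At 100 to 250 kb from an end it was 0.49 (0.39 to 0.61), 0.68 (0.61 to 0.76) and 0.78 (0.71 to 0.86) for the same host classes. So 100 to 250 kb from an end the longest hosts held fewer peaks than the shortest, with intervals apart, which was not seen at 5 to 20 kb.

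The start and the finish of a gene were not alike. Strand was known for 405 long genes, holding 1837 of the peaks. At 1 to 5 kb from the start there were 87 peaks, or 5.43 per 100 kb (4.35 to 6.69), and at 1 to 5 kb from the finish 29, or 1.81 (1.21 to 2.60). At 5 to 20 kb the order was turned round, with 59 peaks or 0.98 (0.74 to 1.26) on the start side and 109 or 1.80 (1.48 to 2.17) on the finish side. At 20 to 50 kb the values were 0.78 (0.63 to 0.95) and 1.11 (0.93 to 1.32). There, and from 50 kb on, the intervals of both sides overlapped.

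Genes of 100 to 300 kb had the same layout. Their densities were 4.24 per 100 kb at 1 to 5 kb from the start and 2.15 from the finish, then 1.19 and 1.99 at 5 to 20 kb, and 1.12 and 1.65 at 20 to 50 kb. By these values the start side led at 1 to 5 kb and trailed from 5 to 50 kb in this class too. At 20 to 50 kb the intervals overlapped in the long genes, whereas in this class they were apart (1.02 to 1.23 and 1.52 to 1.78).

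Cut into 20 equal parts from start to finish, the gene bodies held 161 peaks in the first part (1.45 per 100 kb, 1.23 to 1.69) and 165 in the last (1.48, 1.27 to 1.73), with values from 0.53 to 0.96 in the parts between. Of the 161, 24 lay within 1 kb of an annotated internal start, and of the 165, 4. The lowest value stood at 65 to 70% of the length, with 61 peaks. In 5 equal parts the densities were 0.91, 0.70, 0.67, 0.69 and 1.02 per 100 kb, with the first and last both above the 3 between.

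**Figure D3:**
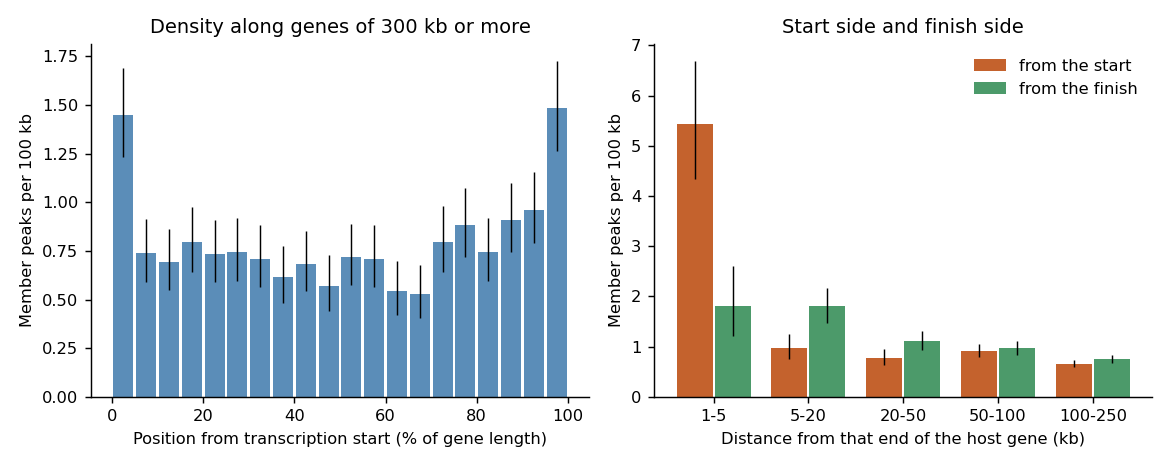
Density of member peaks along the 405 long genes of known strand. Left, peaks per 100 kb (y axis) in 20 equal parts of the gene from the start (x axis, percent of gene length); right, peaks per 100 kb by distance in kb from the start (orange) and from the finish (green); bars are densities and lines are 95% Poisson intervals. The outermost parts stand at 1.45 and 1.48, and the start side leads only at 1 to 5 kb.

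Distances between neighbouring peaks of the same gene varied widely. The 1859 pairs of neighbours in 427 genes had a median distance of 41.0 kb, with quartiles of 12.3 and 109.4 kb and a mean of 86.5 kb. The pairs were pooled over genes, so these distances do not separate the spread within a gene from that between genes. Gene body per member peak came to 128.0 kb, which also counts genes with no member and the body outside the pairs. Within 5 kb of each other were 209 pairs (11.2%), within 10 kb 390 (21.0%), within 50 kb 1012 (54.4%) and within 250 kb 1702 (91.6%). In genes of 100 to 300 kb the median was 19.9 kb with 71.3 kb of gene body per peak, and 30.2% of pairs lay within 10 kb. Their shorter bodies bound how far apart 2 peaks can lie.

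Longer hosts had wider spacing. The median was 72.4 kb in hosts of 1 Mb or more (316 pairs), 47.1 kb in hosts of 500 kb to 1 Mb (621 pairs) and 31.6 kb in hosts of 300 to 500 kb (922 pairs). Pairs within 10 kb made up 14.9%, 18.8% and 24.5% in that order.

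The closest pair was in Rabgap1l, a Rab GTPase-activating protein gene, with summits 704 bases apart and column values of 28.8 and 324 for 1 peak and 8.82 and 65.0 for the other. Next came Adgrb3, an adhesion G protein-coupled receptor gene of synapses, at 866 bases, Ppargc1a, a transcriptional coactivator of mitochondrial genes, at 954, Nkain2 at 1013 and the BBSome gene Bbs9 at 1050. The Adgrb3 peaks had 8.41 and 107.8 in 1 and 45.1 and 17.02 in the other, so their order differed between the columns. In Ppargc1a the values were 15.6 and 25.3, and 25.7 and 23.5, both near the weak end of the list.

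Joined wherever neighbours were within 10 kb, 677 peaks (28.9%) formed 218 groups of 2, 47 of 3, 15 of 4 and 7 of 5 or more. The 7 were in Ksr2 and Shank2 (7 peaks each), Gse1 (6) and Agap1, Cacna1a, Cdh4 and Dock4 (5 each). Ksr2 encodes a scaffold of the Ras pathway, Cdh4 a cadherin and Dock4 an exchange factor for Rac. The Ksr2 group spanned 25.8 kb at 26% of the gene length, with strengths from 78.4 to 700. That of Shank2 spanned 29.1 kb and ran from 37.3 to 390, and that of Cacna1a, the pore subunit of the P/Q-type calcium channel, spanned 24.2 kb and ran from 50.7 to 464. Peaks of widely differing strength thus stood together in each of these groups. Between neighbours within 10 kb joint strengths had a Spearman correlation of 0.09 over 390 pairs, and between neighbours over 100 kb apart 0.04 over 506 pairs, both given as descriptions.

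Peaks with a neighbour within 10 kb were somewhat stronger than the others. Their medians were 28.0 in the first column, 145 in the second and 178 jointly (677 peaks), against 21.3, 120 and 148 for the 1668 without. Both columns differed the same way.

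At the other extreme stood stretches with no summit of the list. The median long gene had a longest empty stretch of 280 kb, or 55.9% of its length. The longest was nearly all of Lrp1b, 2058 kb, followed by 1580 kb in Macrod2, 1440 kb in Fhit and 1346 kb in Naaladl2. Lrp1b and Naaladl2, though without a member, each had a peak of the list within 1 kb of an end. Macrod2, which encodes an ADP-ribose hydrolase, held 5 peaks, 3 within 273 kb of its start (152, 94.1 and 281 jointly) and 2 from 1856 to 1859 kb (35.7 and 278). In Nkain2, a Na,K-ATPase partner gene, 1147 kb separated 3 peaks within 7.22 kb of the start from 1 peak at 1155 kb. No input or mappability track was at hand, so the part of unmappable sequence in these stretches was not tested.

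**Figure D4:**
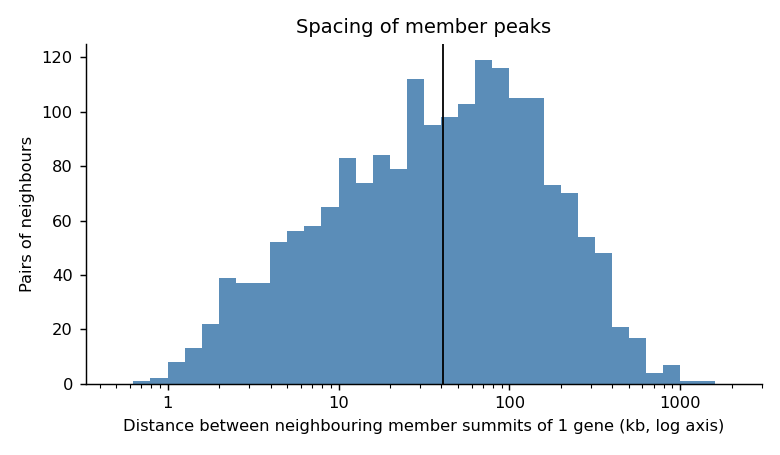
Distances between neighbouring member summits of the same gene (x axis, kb, log axis) as a histogram of the 1859 pairs (y axis, pairs); the black line is the median. Distances run from 704 bases to 1583 kb around the median of 41.0 kb, with a shoulder below 10 kb that holds 21.0% of the pairs.

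In strength the peaks inside long genes stood near the middle of the list, with 47.5% above its median. Their joint strength had a median of 155 (quartiles 77.3 and 269), from 33.0 to 1780. In genes of 100 to 300 kb the median was 154 and in genes of 30 to 100 kb 150, while intergenic peaks had 184. The column medians of the members were 23.7 and 127, against 26.4 and 122 in genes of 100 to 300 kb and 27.5 and 153 between genes. Thus the lower joint strength than between genes came with lower values in both columns, whereas against genes of 100 to 300 kb the members were lower in the first column and higher in the second.

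Fewer of the members reached the deposited cap of IDR, a −log10 of 5: 17.01% (15.5 to 18.6, exact binomial interval), against 19.3% in genes of 100 to 300 kb (18.1 to 20.6) and 23.6% between genes (22.8 to 24.5). They were also narrow, with a median of 1013 bp against 1084 and 1076 bp. Peaks within 1 kb of the ends of the same long genes, 270 in number, had a median width of 1438.5 bp, and 34.4% of them reached the cap. By host length the joint medians were 154, 152 and 157 from the longest class to the shortest.

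The columns differed more inside long genes than at their ends, as they did for distal peaks at large. Of the members 95.9% were higher in the second column, with a median log2 difference of 2.24 (quartiles 1.55 and 2.83), and the columns had a Spearman correlation of 0.65 over the 2345 peaks. At the ends of the long genes 65.9% were higher in the second column and the median difference was 0.21, with column medians of 64.6 and 87.9. Other classes of peaks showed the same contrast: the median difference was 2.08 in genes of 100 to 300 kb (94.3% higher in the second column), 2.26 between genes (97.9%) and 0.40 at the ends of all protein-coding genes. The columns are not tied to a labelled replicate, their depth is unknown, and the part of depth in these differences was not tested.

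Members gathered at annotated internal starts, and there the columns differed less. Of the 275 internal starts of the host's own RefSeq transcripts, 61 (22.2%, 17.4 to 27.6) had a member within 1 kb, and of the 523 starts of non-coding genes 28 (5.35%, 3.59 to 7.64). Within 1 kb of any such start 81 members stood at 5.57 per 100 kb (4.43 to 6.93), against 0.76 (0.73 to 0.79) for the 2264 others. The starts carried 3.45% of the members.

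The 81 had medians of 42.5 in the first column and 88.9 in the second, against 23.3 and 129 for the 2264 further away. Their median difference between the columns was 0.36 on the log2 scale, against 2.27. At starts of the host's own transcripts it was 0.04 (57 peaks, medians of 50.0 and 55.6), and at non-coding starts 1.74 (24 peaks, 30.4 and 133). By distance from the nearest start the difference was 0.39 within 250 bases (36 peaks), 0.36 at 250 to 1000 bases (45), 2.01 at 1 to 5 kb (87), 2.16 at 5 to 20 kb (196) and 2.29 further away (1981). The largest change was between the class of 250 to 1000 bases and that of 1 to 5 kb, and classes this wide do not place it more closely. What sets the columns apart there was not tested.

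Nearness to the end of the host went with the same measure. Within 5 kb of it the difference was 1.09, with column medians of 37.2 and 125, and beyond 250 kb it was 2.43, with 21.8 and 129. On the start side at 1 to 5 kb it was 0.73 (87 peaks), and on the finish side 2.27 (29 peaks). The 2127 peaks over 5 kb from the host's ends and over 1 kb from internal starts had 2.30, and the 63 at such starts but over 5 kb from the ends had 0.84.

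**Figure D5:**
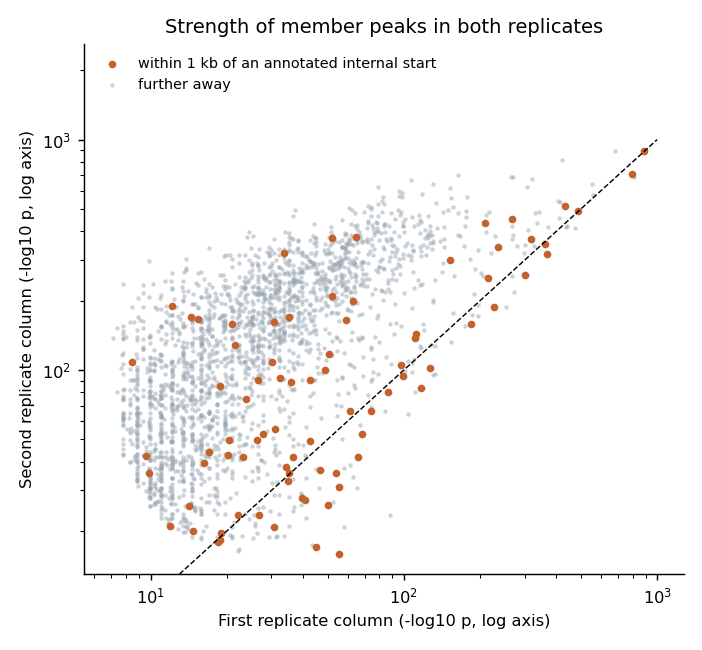
Strength of each member peak in the first (x axis) and second (y axis) replicate column, both −log10 p on log axes; orange points are the 81 peaks within 1 kb of an annotated internal start, grey points the other 2264, and the dashed line marks equal values. Most grey points lie above the line, with a median log2 difference of 2.27, and the orange points lie closer to it, with 0.36.

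The strongest peak of all, 1780, was in Stag1, which encodes a subunit of cohesin itself. It lay 123 bases from an internal start of Stag1, 45.9 kb into the gene (chromosome 9, 100642505 to 100643929), with 890 in the first and 891 in the second column. The other Stag1 peak, 320 kb from the start, had 28.1 and 211. The 2 peaks of this gene thus differed most in the first column.

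Next were Iqsec1, an Arf exchange factor of synapses, with 682 and 894 at 251 kb from its start and 21080 bases from the nearest internal start, and Kcnh1 with 796 and 709 at 1.52 kb. Pcdh7, a protocadherin outside the clusters, had 813 and 687, 3.56 kb from its start in a peak 6857 bp wide that reached past the start. Kif26b, a kinesin family gene, had 421 and 811 at 1.60 kb, in a peak that also reached past the start. Nkain3 had 554 and 641 at 2660 bases from an end of unknown kind, and Limch1, an activator of non-muscle myosin, 556 and 574 at 251 kb. The remaining 3 of the 10 strongest were 2 in Gse1 and 1 in Asic2, with 486 and 490, 242 bases from an internal start 816 kb into the gene. So 4 of the 10, those of Iqsec1, Limch1 and Gse1, lay over 10 kb from the ends of the host and from every annotated internal start, and the other 6 within 5 kb of one. The log2 difference between the columns was at most 1.34 in these 10, against the median of 2.24 over all members.

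Of the 533 long genes 233 were in 8 gene lists drawn up by hand by broad function, and 300 were in none of them. As listed, signalling genes had the highest density, and receptor, adhesion and axon guidance genes the lowest. The interval of the signalling list overlapped those of the transcription factor, ion channel, scaffold and RNA-binding lists. Lists made by hand need not hold every long gene of a function, so the order is that of these lists only. Host length differs between the lists, with a median of 833 kb among adhesion genes and 404 kb among transcription factor genes, and its part in these densities was not tested. All 533 long genes together stood at 0.78 per 100 kb, with 44 without a member.

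The 17 long neurotransmitter receptor genes held 44 peaks, 0.44 per 100 kb (0.32 to 0.59), with a joint median of 134. Gabbr2, a subunit of the GABA-B receptor, led with 8, of which the strongest had 144 and 370 in the first and second columns and lay 302 kb from its start. Grik4, a kainate receptor subunit, had 6, from 40.3 to 549 jointly. Grid1, a receptor of the delta type, had 5, from 35.0 to 465, and the AMPA receptor gene Gria1 3, from 53.1 to 364. The metabotropic glutamate receptor gene Grm7 had none, although it spans 921.9 kb.

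The 54 adhesion and synaptic organiser genes held 286 peaks at 0.58 per 100 kb (0.51 to 0.65). Cdh13, which encodes a cadherin without a transmembrane part, had 15 peaks and Lsamp and Ntm, both of the IgLON family, 15 and 14, while the presynaptic neurexin gene Nrxn3 had 13. In Lsamp the 3 strongest lay together at 2181, 2186 and 2188 kb from the start, within the last 1% of the gene, with 534, 536 and 418 jointly. The other 12 Lsamp peaks lay from 288 to 1852 kb and reached 406. Cntn6, a contactin, and Lrrtm4, a postsynaptic ligand of neurexins, had no member.

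The 18 axon guidance genes stood at 0.59 per 100 kb (0.46 to 0.75) with 68 peaks. Robo2, a Slit receptor, had 11, Robo1 9, Dab1, the adaptor of reelin signalling, 7 and the ephrin receptor gene Epha6 7. Robo2 had no member stronger than 279, and its peaks had medians of 13.6 in the first and 106 in the second column. Dab1 had 1 strong peak, with 317 and 369 at 748 kb from the start, and 6 others of 54.4 to 188 jointly. Epha5 had none.

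The 33 listed ion channel and channel partner genes held 170 peaks at 0.92 per 100 kb (0.79 to 1.07). After Asic2 came Dpp6, an auxiliary subunit of A-type potassium channels, with 13, Cacna1a with 12 and Cacna1d, the pore subunit of an L-type calcium channel, with 9. Kcnh7, a potassium channel related to Kcnh1, had none, whereas Kcnh1 itself had its strong peak at the internal start printed above and a second one of 94.6 jointly.

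All 24 scaffold and vesicle release genes held at least 1, 154 in total at 0.91 per 100 kb (0.77 to 1.06). Shank2 led, followed by the ankyrin genes Ank2 with 13 and Ank3 with 11 and by Dlg2, a scaffold of the postsynaptic density, with 11. Dlg2 is 1973 kb long, so its 11 stood at 0.56 per 100 kb, and those of Ank3 at 2.24. Their column medians were 15.8 and 116 in Dlg2, and 48.3 and 155 in Ank3.

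The 41 signalling genes held 248 peaks at 1.12 per 100 kb (0.98 to 1.27), led by Agap1, Pde4d, Kalrn and, with 11, the GTPase-activating protein gene Arhgap26. Among these 4 genes the peaks of Arhgap26 had the highest median, 274 jointly, with 55.6 in the first and 227 in the second column, and those of Agap1 had 98.1, with 19.3 and 77.0. Rgs7, a regulator of G protein signalling, had no member.

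The 39 transcription factor and chromatin genes held 209 at 1.08 per 100 kb (0.94 to 1.24), 54 of them in Gse1 and Camta1. Without these 2 genes, a count added after the values were seen, it stood at 0.85 per 100 kb (0.72 to 1.00, 155 peaks), and the signalling list without its 2 fullest genes at 1.04 (0.91 to 1.19). Rora, a nuclear receptor gene, had 12 and Myt1l, a zinc finger gene of neuronal identity, 11. Dach1, Ebf1 and Zfp804b had none. The joint median of this list was 117, against 155 for all members, with 26.4 and 92.4 in the columns.

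The 7 RNA-binding protein genes held 45 at 0.85 per 100 kb (0.62 to 1.13), 29 of them in Rbfox3 and Rbfox1. Without these 2 genes, a count added after the values were seen, the list stood at 0.47 per 100 kb (0.27 to 0.77, 16 peaks in 5 genes). Rbfox3, whose protein is the neuronal marker NeuN, had 15, Rbfox1 14, Rbms3 8 and Msi2 4, and the RNA editing family gene Adarb2 had none. The 8 peaks of Rbms3 were all weak, from 35.6 to 87.5 jointly, with medians of 12.2 and 42.7. Those of Rbfox3 reached 742 and had column medians of 58.2 and 69.4, so that they differed less between the columns than those of Rbfox1, with 26.3 and 138.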

How the data were processed

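The deposited file has the 20 columns of an IDR comparison and gives, for each joint peak, the authors' −log10 p in either replicate and the sum. Its rescaled IDR score is deposited too and was not used. The −log10 of the global IDR is a separate column, and that one was used. The submitters' processing notes name MACS2, BWA, SAMtools, Trimmomatic and FastQC, with mm10 and GRCm38.p6 as builds. How inputs entered is not stated there. The replicate columns are not tied to labelled replicates. Depth is unknown, which limits how far strengths and counts can be read.

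Genes came from a RefSeq table, and strands, internal starts and sequences from RefSeq promoter windows (250 bases before to 50 after a start), both on GRCm38.p6; 348 genes on scaffolds were left out. Strand was known for 405 of 533 long genes. Each summit belongs to the longest protein-coding gene that holds it. Densities divide counts by gene body over 1 kb from every protein-coding end. Intervals (95%, exact Poisson or binomial) cover only counting error. No test was run. The counting code was tested on simulated data.

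The peaks, lists and classes were chosen with earlier results of these data known. Named genes were, by rule, the 10 with the most peaks, the 5 densest, the extremes among genes of 1 Mb or more, for each list the 4 with the most and up to 3 with none, and hosts of the 10 strongest peaks, the 5 closest pairs and the 5 longest empty stretches. Genes of groups of 5 or more and of the printed starts were added after their values were seen, as were Nkain2's long stretch, Unc13c and the host length classes by distance. Some genes that the rule names are left out of the text. Alternatives were lengths of 200 and 500 kb, margins of 500 bp and 5 kb, an IDR of 0.01, stronger peaks, peak midpoints, no predicted genes and each replicate column alone. Counts were made in Python 3.11.15 with pandas 2.3.3 and numpy 2.4.6, intervals with scipy 1.17.1 and plots with matplotlib 3.10.9.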

Additional observations from a re-analysis of the deposited data

How the results depend on the processing

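The count of 2345 became 3558 and 1138 with gene lengths of 200 and 500 kb, 1115 for peaks above the median joint strength of the list, and 897 to 1156 for peaks above the median of either replicate column alone. The density of 0.78 per 100 kb became 0.37 for peaks above the median and 0.30 to 0.39 by column. Density within 50 kb of a host end was 1.90 times that further inside, and 1.58 times with a margin of 5 kb and 2.01 to 2.35 by column. The density of the first 20% of the gene over the last 20% was 0.90. It became 0.84 and 0.95 with lengths of 200 and 500 kb, and 0.99 and 0.75 with margins of 500 bp and 5 kb. At an IDR of 0.01 it was 0.82, above the median 0.80 and by column 0.78 to 0.79. It was below 1 in all of these, which draw on the same list of peaks. The counting intervals of the first and last 20% overlapped (0.83 to 1.01 and 0.93 to 1.12 per 100 kb). The median spacing of 41.0 kb became 34.3 and 54.1 kb with lengths of 200 and 500 kb, 46.5 kb at an IDR of 0.01, 52.3 kb above the median and 49.5 to 54.7 kb by column. The log2 ratio of the median strength of members to that in genes of 100 to 300 kb, 0.01, changed sign: it was −0.0085 and −0.010 with lengths of 200 and 500 kb, −0.026 at an IDR of 0.01, −0.056 above the median and −0.16 to 0.059 with the strengths of either column, so no order of strength between these classes holds; the cause was not tested. Within 1.5 times of the values reported were 1724 peaks and 0.57 per 100 kb at an IDR of 0.01 and 0.63 per 100 kb with a length of 500 kb, which still lie outside the counting interval of the density. Fewer peaks remain in a stricter list, so lower counts and wider spacing follow from its construction. No paired analysis was possible because the list joins both replicates and holds 1 condition. Without read counts or input values, weak peaks missed at this depth cannot be told from their absence.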

Other observations

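By chromosome the density of the peaks inside long genes ran from 1.00 per 100 kb on chromosome 11 (0.83 to 1.21, 115 peaks) to 0.56 on chromosome 2 (0.46 to 0.66, 124 peaks), with 37 long genes on chromosome 2, Lrp1b, Macrod2, Ptprt and Kcnh7 among them. Inside the 259 long genes with a peak within 1 kb of an end the density was 0.78 per 100 kb (0.73 to 0.82), and inside the 274 without it was 0.79 (0.74 to 0.83), with overlapping intervals. Of the 405 genes of known strand 191 had a peak within 1 kb of the start and 9 within 1 kb of the finish.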
